A study of Mus musculus with 12 samples.

Results

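The TGF-beta ligands, their receptors and the proteins that hold the ligands latent were followed in mouse embryonic stem (ES) cells with and without Terc, the RNA template of telomerase, as the cells differentiated. The genes were 3 ligands (Tgfb1, Tgfb2, Tgfb3), 3 receptors (Tgfbr1, Tgfbr2, Tgfbr3), 2 latent binding proteins (Ltbp1, Ltbp2) and Tgfbi, a matrix protein named for its induction by the ligand. Every probe set whose annotation gives 1 of these 9 symbols was taken, which came to 23 of the 45037 probe sets tested on Affymetrix Mouse Genome 430 2.0 arrays, and 9 of the 18193 genes with a probe set of their own. RNA came from Terc-/- cells and from WT cells, all of C57BL/6 background, with 2 arrays of each genotype on each of 3 days (0, 8 and 15), 12 arrays in all. Day 0 arrays held undifferentiated ES cells, which were the late-generation (G3/4) Terc-/- lines F35 (replicate 1) and A49 (replicate 2) at passage 11 and the WT lines N12 (replicate 1) and N33 (replicate 2) at passage 12, so each genotype rests on 2 lines. These lines were kept on mouse embryonic fibroblast feeders with LIF, and whether feeder cells were removed before RNA was taken is not given. Day 8 and day 15 arrays held cells of the same 2 genotypes after 4 days as embryoid bodies in hanging drops without LIF and further culture on plates, and the lines behind them are not named. No probe set of Terc itself was annotated to that gene alone, so the genotype rests on the labels.

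The 3 TGF-beta ligands are made as precursors whose cleaved propeptide stays bound to the ligand and keeps it inactive. LTBP1 ties this latent complex to the extracellular matrix, while LTBP2 is a matrix protein of the same family that does not bind the latent ligand. Released ligand binds TGFBR2, which phosphorylates and activates TGFBR1, and TGFBR1 phosphorylates Smad2 and Smad3. TGFBR3, also called betaglycan, is a co-receptor that presents ligand, and is needed above all for TGF-beta2. The pathway is known for the matrix production of fibroblasts and mesenchyme and for epithelial to mesenchymal transition.

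Values are linear array intensities, whose number per group limits the precision. Differences are those between the group means of log2 intensity, over 2 arrays each, with their standard error (SE). The spread behind an SE was pooled over the groups of all days, the WT day 8 pair included. A fold given beside a log2 difference is 2 raised to its size, and not a ratio of mean intensities. A probe set was called changed at an adjusted p under 0.05 in the limma fit over all probe sets. Median intensities were 113.6 to 117.0 on day 0 arrays and 50.6 to 53.1 on the others, and lower quartiles were 54.4 to 56.3 and 19.1 to 20.7. Whether this comes from processing or from the day cannot be told apart, so levels were compared between days only from day 8 on. The labels call the arrays biological replicates without saying how cultures were separated, so p-values measure the spread between these arrays.

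The WT arrays of day 8 stood apart from each other. Of the 23 probe sets, 12 differed more than 2-fold between these 2 arrays, against 0 between the Terc-/- arrays of day 8, 0 between the Terc-/- arrays of day 15 and 2 between the WT arrays of day 15. The median size of the log2 difference between the WT day 8 arrays was 1.06 over the 23 probe sets and 0.19 over all probe sets. Replicate 2 was the higher array for Tgfbi (1456250_x_at), at 1915 against 533 in replicate 1, and for Tgfb2 (1423250_a_at), at 1137 against 346. The summed intensity of 16 fibroblast and mesenchyme markers, brightest probe set of each gene, split the same way, at 28576 in replicate 2 and 7812 in replicate 1, against 4384 and 4379 in the Terc-/- arrays of day 8. Of the 16, 3 were called lower in Terc-/- cells at day 8, beside 1.54% of all genes called in either direction. That count changed with each day 8 array left out in turn, those of Terc-/- cells included, and is not read as stable. The part of these markers in the results was not tested. Results that rest on the WT day 8 arrays are therefore also given without one or the other, for the bright probe sets described. For counts and lists it is given or said whether they depended on these arrays.

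**Figure D1:**
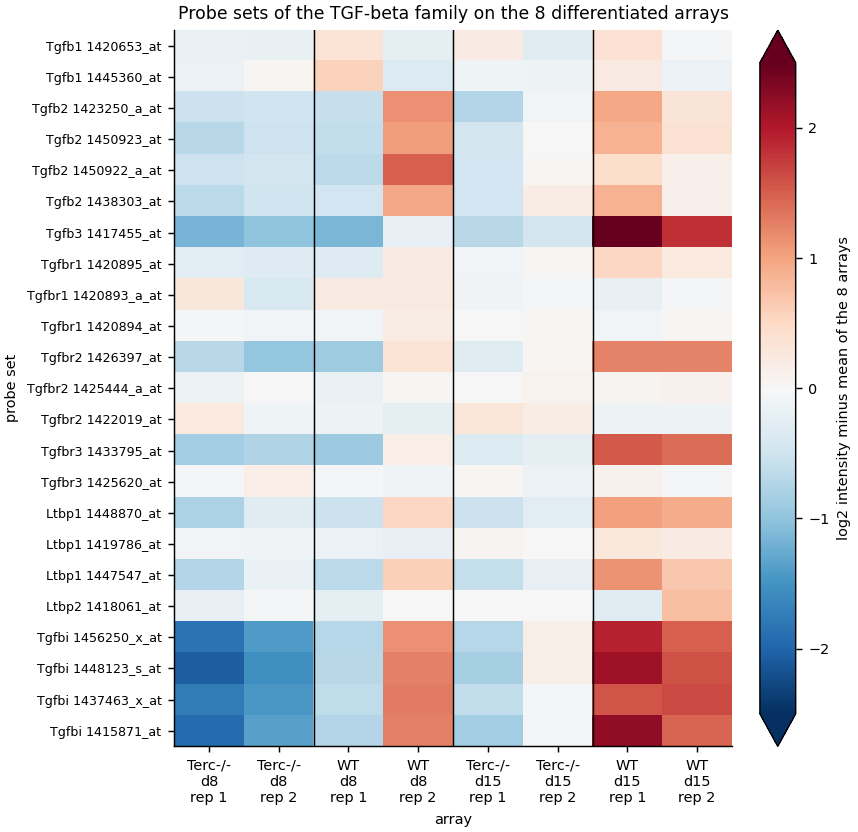
Log2 intensity of each of the 23 probe sets (rows) on the 8 arrays of day 8 and day 15 (columns, Terc-/- left of WT on each day), as the deviation from the probe set's own mean over these 8 arrays. The WT arrays of day 15 are high for Tgfb3, Tgfbr2, Tgfbr3, Ltbp1 and Tgfbi, and of the 2 WT arrays of day 8 only replicate 2 is high for Tgfb2 and Tgfbi.

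At day 15, 8 of the 23 probe sets, those of Tgfb3, Tgfbr2, Tgfbr3, Ltbp1 and all 4 of Tgfbi, were lower in Terc-/- than in WT cells, and 0 were higher. This is 34.8% of the family's probe sets, beside 6.45% of all probe sets called lower in that comparison. The 4 probe sets of Tgfbi count 1 gene 4 times. By gene, each read by its brightest probe set, 5 of 9 were called lower, beside 17.1% of all genes called in either direction. The median log2 difference was -0.64 over the 23 probe sets and 0.04 over all. At an unadjusted p under 0.05 the count was 10, beside 26.3% of all probe sets. In bulk samples such as these, fewer cells of a type and less RNA per cell cannot be told apart. The arrays of the genotypes did not overlap for 14 of the 23 probe sets in the lower direction, beside 23.4% of all probe sets, and 11 were lower by at least 1.8-fold on group means, the rule of the study's methods, beside 3.99% of all. With each of the 4 day 15 arrays left out in turn, 2 to 5 of the 23 were called, all lower, beside 1.96% to 6.33% of all probe sets called lower in those fits, and those of Tgfb3 and Tgfbr3 were among them each time. Markers of other cell types differed at day 15 too, with 9 of 10 ES cell markers higher and 10 of 16 fibroblast and mesenchyme markers lower in Terc-/- cells. These counts stand beside 17.1% of all genes called in either direction. The part of these cell types in the calls of the family was not tested.

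**Figure D2:**
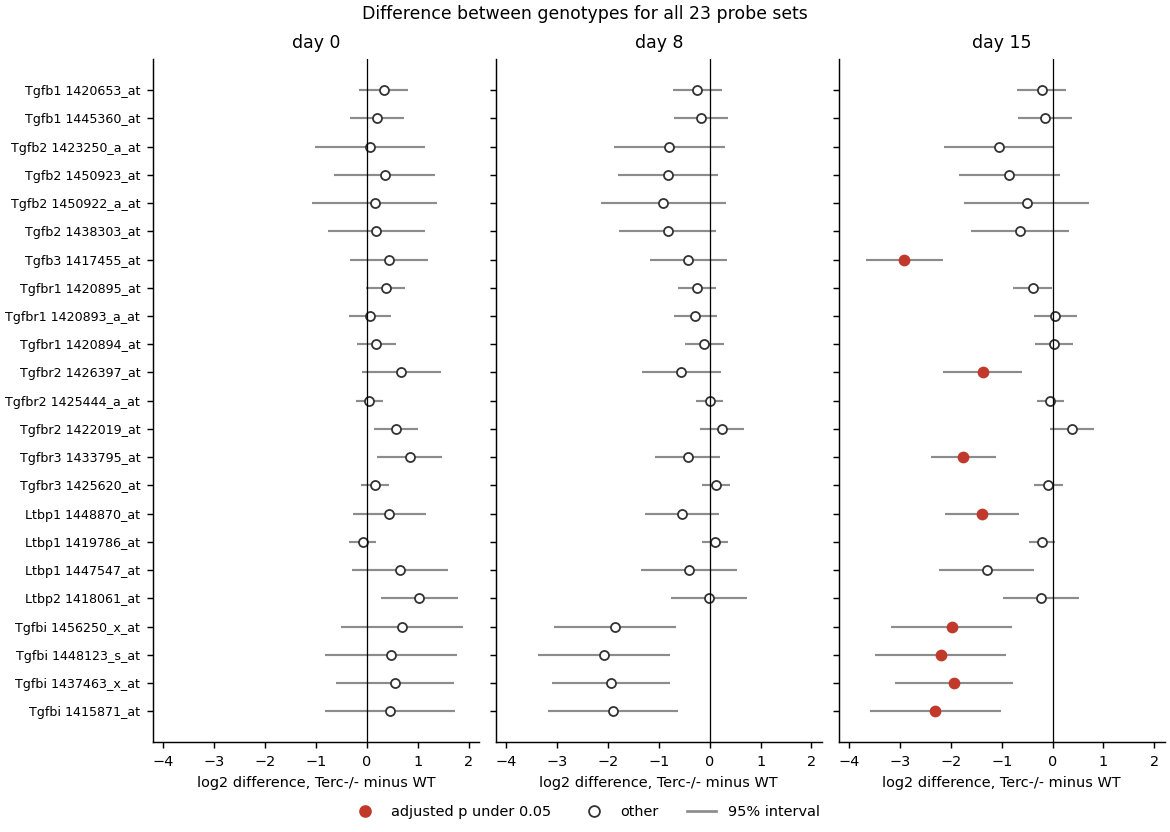
Log2 difference, Terc-/- minus WT, of each of the 23 probe sets on the 3 days, with its 95% interval from limma; filled points have an adjusted p under 0.05. At day 15 there are 8 filled points, all left of 0, and at day 0 and day 8 there are none.

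Among the ligands, Tgfb3, whose product acts in palate closure and in mesenchymal tissues, carried the largest difference of the family at day 15. Its probe set (1417455_at) read 53.7 and 63.5 in Terc-/- cells against 627 and 308 in WT cells, a log2 difference of -2.91 (SE 0.34, adjusted p = 0.000815), or 7.52-fold. The Terc-/- values lay near the medians of their arrays (52.9 and 52.5), so the size of the fold is uncertain. With an offset of 32 added to the intensities the log2 difference was -2.39. Both Terc-/- arrays lay far under both WT arrays, and the call held without any 1 of the day 15 arrays (log2 differences of -2.40 to -3.43). At day 8 the same probe set read 38.7 and 43.4 in Terc-/- cells and 39.7 and 75.6 in WT cells, which overlap (log2 difference -0.42, SE 0.34, adjusted p = 0.643). Without replicate 1 of WT day 8 the difference was -0.88 (adjusted p = 0.181), and without replicate 2 it was 0.04 (adjusted p = 0.976). At day 0 it read 88.3 and 109 in Terc-/- cells and 69.4 and 75.8 in WT cells, a difference that did not pass (0.44, SE 0.34, adjusted p = 0.798). All of these day 0 values lay under the medians of their arrays, which were 113.6 to 117.0.

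Between day 8 and day 15, Tgfb3 rose in WT cells, to 627 and 308 at day 15 against 39.7 and 75.6 at day 8 (log2 difference 3.00, SE 0.34, adjusted p = 0.000594). The rise held without replicate 1 of WT day 8 (2.54, adjusted p = 0.00221) and without replicate 2 (3.47, adjusted p = 0.000155). In Terc-/- cells it read 53.7 and 63.5 at day 15 and 38.7 and 43.4 at day 8, where the log2 difference of 0.51 (SE 0.34) had a 95% interval of -0.25 to 1.27 and did not pass (adjusted p = 0.644). The test of the difference between the 2 changes gave -2.49 (SE 0.48, adjusted p = 0.0694). It passed without replicate 2 of WT day 8 (-2.96, adjusted p = 0.00878) and without replicate 2 of WT day 15 (-3.01, adjusted p = 0.00561), and not without any 1 of the other 6 arrays compared (-1.98 to -2.61, adjusted p of 0.0853 to 0.258).

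Tgfb2, the ligand tied to heart, eye and neural crest development, had 4 probe sets and none was called between the genotypes on any day. The brightest (1423250_a_at) read 309.8 and 492 in Terc-/- cells against 1011 and 648 in WT cells at day 15, where the arrays do not overlap but the difference of -1.05 (SE 0.48, adjusted p = 0.206) did not pass, and the other 3 differed by -0.51 to -0.85. At day 8 it read 357 and 369 in Terc-/- cells and 346 and 1137 in WT cells. The day 8 difference rested on the high WT array. Without replicate 1 of WT day 8 all 4 Tgfb2 probe sets were called lower in Terc-/- cells (-1.55 to -1.99, adjusted p of 0.00128 to 0.0246), and without replicate 2 the 4 differences were between -0.10 and 0.17. The change of Tgfb2 from day 8 to day 15 in WT cells even turned with that choice. Its probe set 1450922_a_at read 173 and 138 at day 15 against 80.5 and 358 at day 8, a log2 difference of -0.14 (SE 0.54) with both arrays, of -1.22 (adjusted p = 0.00615) without replicate 1 of day 8 and of 0.94 (adjusted p = 0.0122) without replicate 2.

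Tgfb1, the ligand best known for immune regulation and fibrosis, showed no called difference. Its brighter probe set (1420653_at) read 213 and 149 in Terc-/- cells and 235 and 182 in WT cells at day 15 (-0.22, SE 0.22, 95% interval -0.70 to 0.27). At day 8 it read 164 and 162 in Terc-/- cells and 235 and 158 in WT cells (-0.24, SE 0.22), with 0.04 without replicate 1 of WT day 8 and -0.53 without replicate 2, neither called. At day 0 it read 89.7 and 106 in Terc-/- cells and 72.6 and 82.3 in WT cells (0.34, SE 0.22, adjusted p = 0.738). Its other probe set (1445360_at) differed by -0.16 (SE 0.24) at day 15. Of the 7 ligand probe sets, the 1 of Tgfb3 was thus called at day 15 and the 6 of Tgfb1 and Tgfb2 were not.

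**Figure D3:**
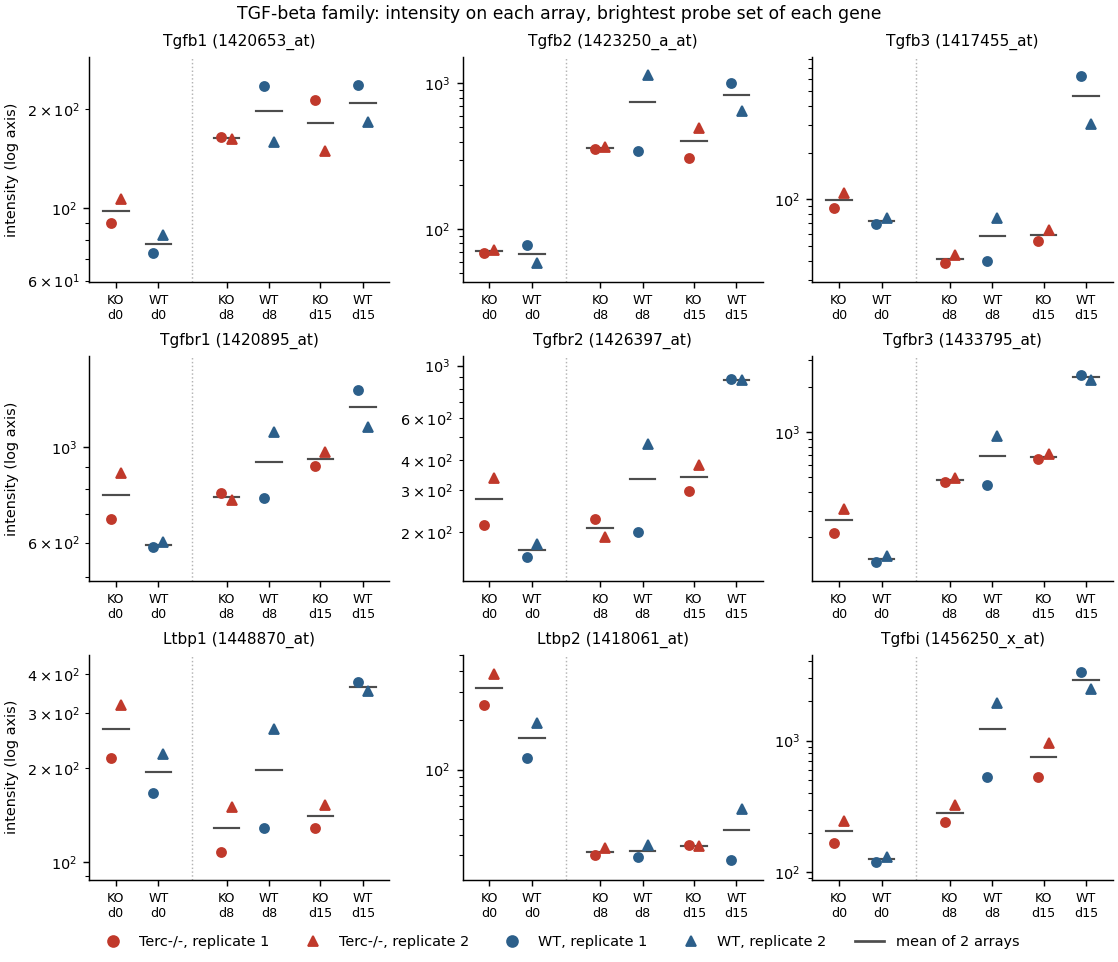
Intensity on each of the 12 arrays (log axis) for the brightest probe set of each of the 9 genes, with Terc-/- (KO) left of WT on each day, circles for replicate 1, triangles for replicate 2 and a bar at the mean of 2 arrays. The dotted line divides day 0, whose levels are not compared with those of the later days, from the rest. For Tgfb3, Tgfbr2, Tgfbr3, Ltbp1 and Tgfbi the 2 WT arrays of day 15 lie above both Terc-/- arrays of that day.

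Of the receptors, Tgfbr2 and Tgfbr3 were lower in Terc-/- cells at day 15. The bright Tgfbr2 probe set (1426397_at) read 298 and 380.2 in Terc-/- cells against 876 and 866 in WT cells, a log2 difference of -1.37 (SE 0.35, adjusted p = 0.0289), or 2.59-fold. The arrays do not overlap and the WT pair was nearly equal. The size hardly moved with 1 array left out, at -1.20 to -1.55, but the call was lost without any 1 of the 4 day 15 arrays (adjusted p of 0.065 to 0.178). At day 8 it read 227 and 189.6 in Terc-/- cells and 199 and 466 in WT cells (-0.55, SE 0.35, adjusted p = 0.525). Without replicate 1 of WT day 8 that difference was -1.17 (adjusted p = 0.0232), and without replicate 2 it was 0.06 (adjusted p = 0.951). The other 2 Tgfbr2 probe sets were dim after day 0, at 22.6 to 27.1 for 1425444_a_at and 7.82 to 11.3 for 1422019_at on the 8 later arrays, and differed by -0.04 (SE 0.12) and 0.38 (SE 0.20) at day 15.

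Tgfbr2 (1426397_at) rose in WT cells from day 8 to day 15 by 1.52 on the log2 scale (SE 0.35, adjusted p = 0.0154), and the rise held without replicate 1 of WT day 8 (0.90, adjusted p = 0.04) and without replicate 2 (2.13, adjusted p = 0.000252), and was lost without replicate 1 of WT day 15 (1.51, adjusted p = 0.077). In Terc-/- cells it read 298 and 380.2 at day 15 against 227 and 189.6 at day 8, and although those arrays do not overlap the difference of 0.70 (SE 0.35, adjusted p = 0.509) did not pass. The difference between the 2 changes was -0.82 (SE 0.49, adjusted p = 0.56), and it passed without replicate 2 of WT day 8 (-1.43, adjusted p = 0.0356) and not without replicate 1 (-0.20, adjusted p = 0.871). It therefore cannot be said from all arrays that the change differed between the genotypes.

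As examples of genes called lower at day 15, the bases before the start sites of Tgfbr2 and Tgfbi are shown. Both stretches hold the short motif that Smad3 and Smad4 are known to bind. They are the 250 bases before the RefSeq start in GRCm38.p6, at chr9:116175364-116175613 on the minus strand for Tgfbr2 and chr13:56609336-56609585 on the plus strand for Tgfbi, written 5′ to 3′ on the gene's strand, with capitals for CAGAC or its reverse complement GTCTG and for GGGCGG, the GC box, or its reverse complement CCGCCC.
Tgfbr2: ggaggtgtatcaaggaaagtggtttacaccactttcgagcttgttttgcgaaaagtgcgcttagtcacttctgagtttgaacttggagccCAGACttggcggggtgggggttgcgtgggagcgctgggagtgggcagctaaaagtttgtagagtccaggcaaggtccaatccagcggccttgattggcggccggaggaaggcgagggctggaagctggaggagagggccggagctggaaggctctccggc
Tgfbi: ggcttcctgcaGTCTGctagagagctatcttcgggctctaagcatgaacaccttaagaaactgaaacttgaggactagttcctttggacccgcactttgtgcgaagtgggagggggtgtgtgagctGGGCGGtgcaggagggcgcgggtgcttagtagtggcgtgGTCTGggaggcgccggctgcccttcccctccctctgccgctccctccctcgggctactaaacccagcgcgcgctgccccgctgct
No match of one motif overlapped a match of the other in these 2 windows. RefSeq windows were matched for 7 of the 9 genes, 9 windows in all since Tgfbr1 and Ltbp1 have 2 starts each. The motif CAGAC was found on either strand in 7 of the 9 windows, beside 42.2% of all 32851 windows of that length, once for Tgfbr2 and 2 times for Tgfbi. The GC box was found in 4 of the 9, beside 32.7% of all windows, with 5 matches for Tgfb1, 1 for Tgfbi and none for Tgfbr2. The genes with a called difference and those without one were both among the windows with the Smad motif, as Tgfb2 held 2 matches and Ltbp2 held 2. Ltbp1, also called lower at day 15, held the motif in both of its windows, which are not shown. Whether the motif has a part in the differences was not tested.

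Tgfbr3, the co-receptor, was also lower. Its bright probe set 1433795_at read 659 and 712 in Terc-/- cells against 2411 and 2211 in WT cells, a log2 difference of -1.75 (SE 0.29, adjusted p = 0.00388), or 3.37-fold. The pairs of arrays were tight in both genotypes and the call held without any 1 day 15 array (-1.69 to -1.82, adjusted p of 0.0114 to 0.0436). At day 8 it read 467 and 497 in Terc-/- cells and 446 and 944 in WT cells (-0.43, SE 0.29, adjusted p = 0.558), with -0.97 (adjusted p = 0.0138) without replicate 1 of WT day 8 and 0.11 (adjusted p = 0.853) without replicate 2. It rose in WT cells from day 8 to day 15 by 1.83 on the log2 scale (SE 0.29, adjusted p = 0.00257), with or without either WT day 8 array (1.29 and 2.37). In Terc-/- cells the change was 0.51 (SE 0.29, adjusted p = 0.569), and the difference between the changes was -1.32 (SE 0.41, adjusted p = 0.224), which passed without replicate 2 of WT day 8 (-1.86, adjusted p = 0.00339) and not without replicate 1 (-0.78, adjusted p = 0.182). The dim second Tgfbr3 probe set (1425620_at) read 18.7 to 23.1 on the 8 later arrays and differed by -0.08 (SE 0.13) at day 15.

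Tgfbr1, the kinase that signals to the Smads, was not called on any day. Its bright probe set (1420895_at) read 903 and 974 in Terc-/- cells and 1360.0 and 1117 in WT cells at day 15, arrays that do not overlap, but the difference of -0.39 (SE 0.17, 95% interval -0.77 to -0.01) did not pass over all probe sets (adjusted p = 0.173). At day 8 it read 781 and 754 in Terc-/- cells and 763 and 1086 in WT cells (-0.25, SE 0.17), with -0.50 (adjusted p = 0.0963) without replicate 1 of WT day 8 and 0.01 without replicate 2. In WT cells its change from day 8 to day 15 was 0.44 (SE 0.17, adjusted p = 0.118), and it passed without replicate 2 of WT day 8 (0.69, adjusted p = 0.00998) and was 0.18 without replicate 1. Its other 2 probe sets were dim, at 4.88 to 5.81 for 1420894_at on the later arrays, and differed by 0.05 and 0.03 at day 15.

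Of the latent binding proteins, Ltbp1 was lower in Terc-/- cells at day 15. Its bright probe set (1448870_at) read 128 and 153 in Terc-/- cells against 377 and 354 in WT cells, a log2 difference of -1.38 (SE 0.32, adjusted p = 0.021), or 2.61-fold. The arrays do not overlap. The size stayed between -1.26 and -1.51 with 1 day 15 array left out, while the call was lost each time (adjusted p of 0.0522 to 0.139). The dim probe set 1447547_at went the same way, with 13.8 and 18.2 in Terc-/- cells against 45.4 and 33.4 in WT cells, but did not pass (-1.30, SE 0.42, adjusted p = 0.0755), and 1419786_at differed by -0.21 (SE 0.12). At day 8 the bright probe set read 107 and 150.1 in Terc-/- cells and 128 and 267 in WT cells (-0.54, SE 0.32), and it was called without replicate 1 of WT day 8 (-1.07, adjusted p = 0.0465) and was -0.01 without replicate 2. In WT cells from day 8 to day 15, the change of 0.98 (SE 0.32, adjusted p = 0.0702) did not pass for 1448870_at. It was 1.51 (adjusted p = 0.00309) without replicate 2 of WT day 8 and 0.45 without replicate 1. The probe set 1419786_at, at 55.9 and 54.0 at day 15 against 42.5 and 40.4 at day 8, passed (0.41, SE 0.12, adjusted p = 0.0367). That smaller call was lost without any 1 of the 4 WT arrays of days 8 and 15.

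Ltbp2 was not called on any day, and its group means at day 8 and day 15 lay under the array medians. Its probe set (1418061_at) read 34.5 and 34.0 in Terc-/- cells and 27.9 and 57.3 in WT cells at day 15, which overlap (-0.22, SE 0.34), and 29.9 and 33.2 in Terc-/- cells and 29.3 and 34.6 in WT cells at day 8 (-0.02, SE 0.34, and -0.13 and 0.10 without replicate 1 and replicate 2 of WT day 8). At day 0 it read 247 in F35 and 383 in A49 among the Terc-/- lines against 117 in N12 and 193 in N33 among the WT lines. That log2 difference of 1.03 (SE 0.34, unadjusted p = 0.0121) was the largest of the family at day 0, and it did not pass over all probe sets (adjusted p = 0.375).

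Tgfbi, a secreted protein that binds collagens and integrins, was lower in Terc-/- cells at day 15 in all 4 of its probe sets. The brightest (1456250_x_at) read 529 and 966 in Terc-/- cells against 3283 and 2444 in WT cells, a log2 difference of -1.99 (SE 0.53, adjusted p = 0.04), or 3.96-fold. The other 3 differed by -1.94 to -2.30 (adjusted p of 0.0299 to 0.0381), and in each the genotypes did not overlap. The 4 probe sets read the same transcript, and those ending in _x_at or _s_at may share sequence with others, so they are not independent. Without 1 array, between 0 and 3 of the 4 were called: 0 without replicate 1 of Terc-/- or of WT day 15, 1 (1415871_at) without replicate 2 of WT and 3 without replicate 2 of Terc-/- cells, with log2 differences of -1.55 to -2.72.

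Tgfbi arrays were already apart at day 8, though not called. The brightest probe set read 241 and 325 in Terc-/- cells against 533 and 1915 in WT cells, and in all 4 probe sets both Terc-/- arrays lay under both WT arrays. The log2 differences of -1.85 to -2.07 had unadjusted p of 0.00433 to 0.00854 and did not pass over all probe sets (adjusted p of 0.127 to 0.173). They were -2.78 to -3.05 and were called without replicate 1 of WT day 8 (adjusted p of 0.000711 to 0.0104), and were -0.91 to -1.10 and not called without replicate 2. Tgfbi was higher at day 15 on every array in both genotypes. In WT cells the brightest probe set read 3283 and 2444 at day 15 against 533 and 1915 at day 8 (1.49, SE 0.53, adjusted p = 0.0958). This change was 2.41 (adjusted p = 0.00292) without replicate 2 of WT day 8 and 0.56 (adjusted p = 0.442) without replicate 1. In Terc-/- cells it read 529 and 966 at day 15 against 241 and 325 at day 8 (1.36, SE 0.53, adjusted p = 0.404). The difference between these changes was -0.13 (SE 0.75) with a 95% interval of -1.82 to 1.56, and was 0.79 without replicate 1 of WT day 8 and -1.05 without replicate 2. Neither an equal nor an unequal change was shown.

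Over the family as a whole, day 8 gave 0 called probe sets between Terc-/- and WT cells, beside 1.13% of all probe sets, with 4 at an unadjusted p under 0.05, all of Tgfbi, beside 13.9% of all. Without replicate 1 of WT day 8 the count was 11, all lower in Terc-/- cells, beside 3.49% of all probe sets called lower in that fit, and without replicate 2 it was 0. The arrays of the genotypes did not overlap in the lower direction for 5 probe sets, beside 17.8% of all, and 8 were lower by 1.8-fold on group means, beside 1.63% of all. The median log2 difference was -0.42 over the 23 probe sets and 0.03 over all.

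At day 0, 0 of the 23 were called, beside 0.0488% of all probe sets, and 3 had an unadjusted p under 0.05, one each of Tgfbr2, Tgfbr3 and Ltbp2, beside 8.59% of all. Yet 22 of the 23 differences were positive, with a median of 0.37 over the family and 0.04 over all probe sets. The arrays did not overlap in the higher direction for 16 of 23, beside 29.5% of all, and 2 probe sets reached 1.8-fold on group means, beside 0.522% of all, those of Ltbp2 and Tgfbr3. The Tgfbr3 probe set 1433795_at read 213 in F35 and 309 in A49 against 137 in N12 and 149 in N33 (0.85, SE 0.29, adjusted p = 0.4). A49 was the highest line for 17 of the 23 probe sets and N12 the lowest for 16. The 16 fibroblast and mesenchyme markers ran in the same order of lines, with summed intensities of 12724 in A49 and 8225 in F35 against 7528 in N33 and 4673 in N12, and 0 of the 16 called, beside 0.0330% of all genes. Their part in the day 0 values was not tested. The direction at day 0 was thus opposite to that at day 15 for most of the family, with 20 of 23 differences negative at day 15.

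From day 8 to day 15, 4 of the 23 probe sets were called higher in WT cells (Tgfb3, Tgfbr2, Tgfbr3 and the dim Ltbp1 probe set), beside 6.89% of all probe sets, and 0 were called lower. By gene, each read by its brightest probe set, 3 of 9 were called higher, beside 21.0% of all genes called in either direction. Which probe sets were called, and whether any was called lower, depended on the WT day 8 array left out, as did the sizes given above. Arrays of the 2 days did not overlap in the higher direction for 12 probe sets in WT cells, beside 25.5% of all, and for 14 in Terc-/- cells, beside 21.9% of all. In Terc-/- cells 0 were called, beside 0.0200% of all probe sets, and 3 had an unadjusted p under 0.05, all of Tgfbi, beside 10.8% of all. With so few calls among all probe sets of the Terc-/- arrays, a count of 0 there says little of the family.

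The difference between genotypes was then tested between days. From day 8 to day 15, 0 of the 23 probe sets passed, beside 0.422% of all, with 2 at an unadjusted p under 0.05 (Tgfb3 and Tgfbr3), beside 12.0% of all. Without replicate 2 of WT day 8, 3 passed in the lower direction (Tgfb3, Tgfbr2 and Tgfbr3), beside 1.56% of all in that fit, and without replicate 1, 0 passed. From day 0 to day 15, 3 passed, all with a lower difference of Terc-/- from WT at day 15, beside 2.49% of all probe sets in that direction. They were Tgfb3 (-3.35, SE 0.48, adjusted p = 0.00727), Tgfbr2 (-2.05, SE 0.49, adjusted p = 0.0466) and Tgfbr3 (-2.60, SE 0.41, adjusted p = 0.00955). The Tgfb3 call held without any 1 of the 8 arrays compared, the Tgfbr3 call was lost without replicate 1 of Terc-/- day 15 (-2.54, adjusted p = 0.0538), and the Tgfbr2 call held only without line F35 (-2.38, adjusted p = 0.0486) of the 8 such fits and was lost with each array centred on its median (-2.02, adjusted p = 0.0518). All 23 differences were negative in this comparison, with a median of -1.11 over the family and 0.00 over all probe sets. The lines behind day 15 are not named and the day 0 arrays were deposited with higher values. Day, line and processing therefore cannot be told apart in this comparison.

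Of the brightest probe sets, the order of the group means on the later days had WT day 15 first for all 9 genes and Terc-/- day 8 last. WT day 15 was clear of the next group, with no overlap of arrays, for Tgfb3, Tgfbr1, Tgfbr2, Tgfbr3, Ltbp1 and Tgfbi, and not for Tgfb1, Tgfb2 and Ltbp2. Terc-/- day 15 and WT day 8 were neighbours in the middle of the order for all 9 genes and their arrays overlapped each time. Terc-/- day 8 was clear of the group above it only for Tgfbr3 and Tgfbi.

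Other genes of the pathway were read from lists, each gene by its brightest probe set, and the lists share some genes with one another and with the fibroblast markers. Of 24 measured genes of latency, matrix and ligand activation, 8 were lower and 1 was higher in Terc-/- than in WT cells at day 15, beside 17.1% of all genes called in either direction. The largest differences were those of Dcn (decorin, a proteoglycan that binds TGF-beta), at 505 ± 32.2 in Terc-/- cells against 6103 ± 1813 in WT cells (SD, n = 2 each), and of Fmod (fibromodulin), at 31.8 ± 0.14 in Terc-/- cells against 296.5 ± 95.2 in WT cells. Emilin1, which limits processing of the TGF-beta precursor, differed by -2.53 (SE 0.35) and Fbn2 (fibrillin 2, part of the microfibrils to which LTBPs bind) by -1.93 (SE 0.25). Ltbp3, a latent binding protein outside the 9, differed by -0.66 (SE 0.18, adjusted p = 0.0317). It and Cd109, the 1 gene called higher (0.72, SE 0.17) and a co-receptor that holds TGF-beta signalling back, are named after their values were seen. With 1 day 15 array left out, 4 to 6 of the 24 were called. At day 8 only Fbn2 was called, lower at 224 ± 4.66 in Terc-/- cells against 635 ± 176 in WT cells (SD, n = 2 each), beside 1.54% of all genes. More of the list was called without replicate 1 of WT day 8, where more of all probe sets was called too. The Fbn2 call was lost without any 1 of the other 3 arrays.

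Of 23 measured Smads and receptor partners, 4 were higher and 1 was lower in Terc-/- cells at day 15, beside 17.1% of all genes called in either direction, and none of the 5 was a Smad. Tgif1, a homeodomain repressor that binds Smad2 and Smad3, was 569 ± 52.3 in Terc-/- cells against 221 ± 27.3 in WT cells (SD, n = 2 each, log2 difference 1.37, SE 0.14, adjusted p = 0.000232). Pmepa1, which sequesters receptor Smads, differed by 0.54 (SE 0.15), Trim33, which ubiquitinates Smad4, by 0.50 (SE 0.10) and the corepressor Ski by -0.61 (SE 0.15). With 1 day 15 array left out, 1 to 6 of the 23 were called, the 1 without replicate 1 of either genotype. In WT cells, from day 8 to day 15, 8 of the 23 fell, among them Tgif1 (-1.27, SE 0.14) and Pmepa1 (-0.87, SE 0.15), beside 21.0% of all genes called in either direction.

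Of 28 measured genes known as targets of TGF-beta in other cells, 8 were lower and 2 were higher in Terc-/- cells at day 15, again beside 17.1% of all genes. Col1a2, a collagen chain, was 1339 ± 120 in Terc-/- cells against 16967 ± 3230 in WT cells (SD, n = 2 each, log2 difference -3.65, SE 0.51, adjusted p = 0.00248). Lox, the collagen crosslinking enzyme, differed by -2.19 (SE 0.32), Col1a1 by -2.01 (SE 0.55) and Snai2, a repressor of epithelial genes, by -1.50 (SE 0.37). Without replicate 1 of WT day 15, or without replicate 1 of Terc-/- day 15, 3 of the 28 were called. At day 8, Zeb2 (-1.19, SE 0.22) and Twist1 (-0.99, SE 0.19), both transcription factors of mesenchyme, were lower, beside 1.54% of all genes. Without replicate 1 of WT day 8 their differences were -1.49 and -1.35, and without replicate 2 they were -0.89 and -0.63. Both calls were lost without replicate 2 of WT day 8 and without either Terc-/- array. From day 8 to day 15 in WT cells 6 of the 28 rose, beside 21.0% of all genes called, led by Col1a2 (3.55, SE 0.51) and Lox (3.07, SE 0.32), and 1 fell, the contractile gene Cnn1, at 49.5 ± 12.2 at day 15 against 196 ± 32.3 at day 8 (SD, n = 2 each). In WT cells 12 of the 24 genes of the latency list rose as well, with Dcn (4.78, SE 0.62) and Fmod (3.46, SE 0.18) in front, and 1 fell. The counts of the latency, Smad and target lists changed with 1 or the other WT day 8 array left out. Each list had more rises without replicate 2 than without replicate 1. The share called over all probe sets changed in those fits too, so these shifts are not read as particular to the lists. The rises of Dcn, Fmod, Col1a2 and Lox and the falls of Tgif1, Pmepa1 and Cnn1 passed without either array. None of the 3 lists had a called gene at day 0, beside 0.0330% of all genes, or from day 8 to day 15 in Terc-/- cells, beside 0.0275% of all genes. In the test of the genotype difference between day 8 and day 15, each list held 1 called gene, beside 0.660% of all: Fmod (-3.27, SE 0.26), Tgif1 (1.10, SE 0.19) and Eln (elastin, -0.99, SE 0.18). The calls of Fmod and Eln held without either WT day 8 array, and that of Tgif1 was lost without replicate 1 (0.95, adjusted p = 0.0510). Between day 0 and day 15, 6 of the 24, 1 of the 23 and 3 of the 28 were called, beside 6.06% of all genes.

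Markers of several cell types also differed between the genotypes at day 15, though not those of every list. The counts called at day 15 below stand beside 17.1% of all genes called in either direction. At day 15 the summed intensity of the 16 fibroblast and mesenchyme markers was 11786 and 17056 in Terc-/- cells against 85062 and 62876 in WT cells, and 10 of 16 were called lower and 0 higher (7 or 8 lower with 1 day 15 array left out). The 10 macrophage markers summed to 734 and 848 in Terc-/- cells against 6454 and 2786 in WT cells, with 10 of 10 lower and with 8 of the 10 under the array's median on both Terc-/- arrays, and 8 of 10 endothelial markers were lower, summing to 1645 to 1764 in Terc-/- cells against 2620 to 2762 in WT cells. Of the endothelial list only Sox17 differed upward, with means of 987 in Terc-/- and 697 in WT cells (0.82, SE 0.61, not called), and it made up much of the Terc-/- sum. The 10 ES cell markers went the other way, at 19614 and 18386 in Terc-/- cells against 2578 and 7805 in WT cells, with 9 of 10 higher. The 6 smooth muscle markers summed to 13109 to 15162 in Terc-/- cells and 13533 to 14154 in WT cells, with 1 of 6 higher. The 7 epithelial markers summed to 28459 and 29328 in Terc-/- cells against 12251 and 20355 in WT cells, with 2 of 7 higher. The 6 megakaryocyte and platelet markers summed to 372 and 383 in Terc-/- cells against 1739 and 670 in WT cells, with 1 of 6 lower. That 1 was Pf4, with a mean of 36.7 in Terc-/- cells against 828 in WT cells. The other markers of that list were not called and differed by -0.33 to 0.13, so the list as a whole did not move. At day 0 the ES cell markers summed to 66412 to 67748 in Terc-/- lines and 63889 to 64285 in WT lines, and 0 of the 10 lay under the array's median on any day 0 array. The part of these cell types in the values of the TGF-beta family was not tested.

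**Figure D4:**
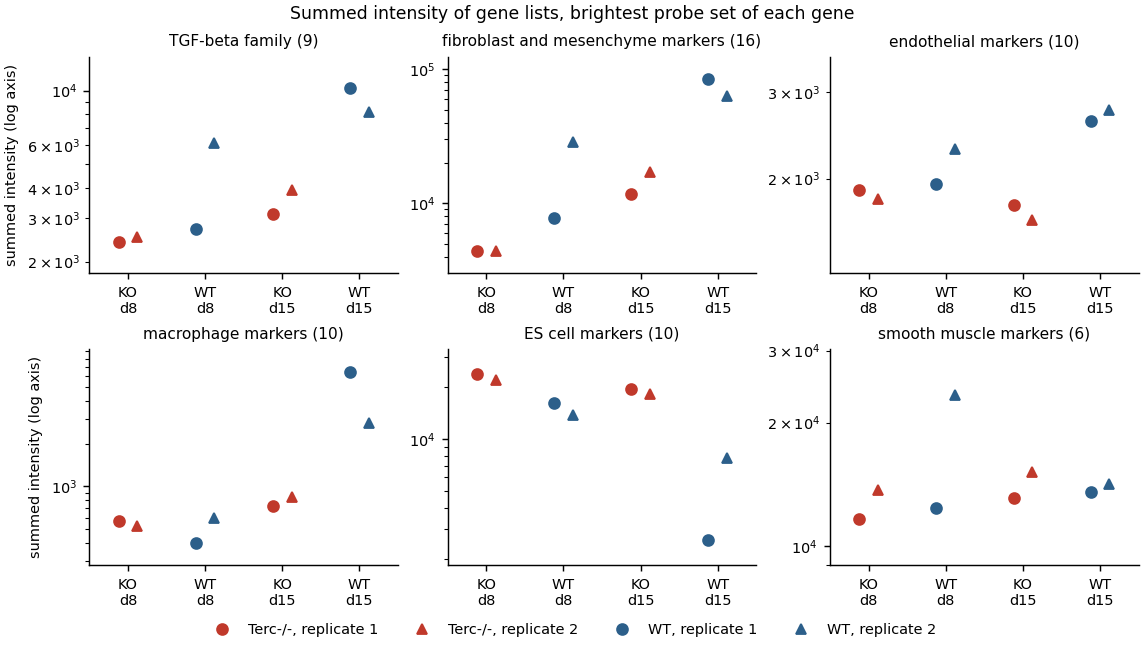
Summed intensity (log axis) of the brightest probe sets of the 9 TGF-beta genes and of 5 marker lists on each of the 8 arrays of day 8 and day 15, with Terc-/- (KO) left of WT, circles for replicate 1 and triangles for replicate 2. The sums of the TGF-beta family and of the fibroblast and mesenchyme markers are highest in the WT arrays of day 15, and replicate 2 of WT day 8 lies above replicate 1 in both.

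The genes whose pattern was most like that of a family member were sought over the 8 later arrays on the log2 scale, among 10906 genes with a mean log2 intensity of 6 or more. For Tgfb3 they were Adamtsl1 and Mrc2, for Tgfbr2 Ppfibp2 and Crtap, for Tgfbr3 Ech1 and Fkbp7, for Ltbp1 4931406C07Rik and Pank3, and for Tgfbi Adgra2 and Daam2. Pearson's r over the 8 arrays was 0.989 to 0.997 for these pairs, given as a measure of likeness only, since the arrays fall into 4 groups and 5.47% to 7.60% of all these genes had an r above 0.9 with the member.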

How the data were processed

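The values were the linear intensities of 45101 probe sets on 12 Affymetrix arrays, deposited by the authors in 1 table; the submitters' processing notes name MAS5, with no version, and its scaling settings are not stated in any source used; detection calls were not used. Day 0 arrays were deposited with higher values than later ones, and scaling and day cannot be told apart. Probe sets were named by the platform annotation (34945 with 1 symbol, 932 with several, 9160 with none), and the 64 manufacturer controls were left out. Values under 1 were set to 1 and taken to log2, so every log2 value is computed from the deposited intensities. limma 3.58.1 (R 4.3.3, statmod 1.5.0) fitted 1 mean for each of 6 groups of 2 arrays, with intensity trend and robust moderation, two-sided, with Benjamini-Hochberg adjustment over 45037 probe sets. It was tested on simulated data. The methods give a 1.8-fold rule for the arrays and a 2-group test for the study at large; both were alternatives, beside an offset of 32, quantile normalization, median centring, brighter probe sets only, no moderation by trend, a replicate block, only the arrays compared, gene means and each array left out. Lists were read by the brightest probe set of each gene, naming up to 4 called genes with the largest difference per list and comparison; other names are given as chosen after their values were seen. Members and lists were chosen with earlier results of these data known. Python 3.11.15 and matplotlib 3.10.9 drew the figures, and promoter windows are RefSeq's (GRCm38.p6).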

Additional observations from a re-analysis of the deposited data

Results flagged for a closer look

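For 3 probe sets the genotype difference at day 15 was not that at day 0. They passed the test of that contrast over all probe sets (limma, adjusted p under 0.05). The lines behind the day 15 arrays are not named, and the day 0 arrays were deposited with higher values. Day, line and processing therefore cannot be told apart in this contrast. Tgfb3 (1417455_at) moved by -3.35 on the log2 scale (adjusted p = 0.00727), with Terc-/- arrays above WT arrays at day 0 and under them at day 15. Its day 0 values lay under the medians of their arrays, and its Terc-/- values of day 15 lay near them. Tgfbr3 (1433795_at) moved by -2.60 (adjusted p = 0.00955) and Tgfbr2 (1426397_at) by -2.05 (adjusted p = 0.0466), in both with Terc-/- above WT at day 0 and below WT at day 15. The Tgfbr2 call was lost in 8 of 15 alternatives (7 of them with 1 array left out, and median centring), that of Tgfbr3 in 1 and that of Tgfb3 in 0. The day 0 arrays held cultures kept on feeders, and the fibroblast and mesenchyme marker sums, at 8225 and 12724 in Terc-/- lines against 4673 and 7528 in WT lines at day 0, and 11786 and 17056 in Terc-/- cells against 85062 and 62876 in WT cells at day 15, turned in the same way. Their part was not tested.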

How the results depend on the processing

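Groups of 2 arrays limit every result here, and the WT day 8 pair limits those of day 8 most. Each probe set's spread was pooled over all 6 groups, so the WT day 8 pair enters the SE of every day. Tgfbr2 (1426397_at) had an SE of 0.35 on each day. Replicate 2 minus replicate 1 was 1.23 in WT day 8, -0.02 in WT day 15 and 0.35 in Terc-/- day 15 (log2). Differences not called at day 15 thus do not rest on the day 15 arrays alone. The 8 day 15 calls held with only the arrays compared, which leaves the day 8 arrays out. Over the 23 probe sets, the number called at day 0 was 0 in the fit reported, 1 by the methods' 2-group test unadjusted and 2 by the 1.8-fold rule. At day 8 it was 0, and 8 by the 1.8-fold rule. At day 15 it was 8, and 0 by the 2-group test after Benjamini-Hochberg adjustment. From day 8 to day 15 it was 4 in WT cells, 8 by the 1.8-fold rule, and 0 with only the arrays compared or by the adjusted 2-group test, and in Terc-/- cells it was 0, 2 by the unadjusted 2-group test, 3 with only the arrays compared and 4 by the 1.8-fold rule. For the genotype difference from day 0 to day 15 it was 3, 5 among brighter probe sets only, 6 with the replicate block and 11 with only the arrays compared. No share of all probe sets stands beside the counts of this section, so they compare settings only and are not read as results about the family. With 1 array left out, the counts ran from 0 to 11 at day 8, from 2 to 5 at day 15, from 2 to 13 for WT cells from day 8 to day 15, from 0 to 3 for the genotype difference from day 8 to day 15 and from 1 to 3 for that from day 0 to day 15. The change of Tgfb2 (1450922_a_at) in WT cells from day 8 to day 15 was -0.14 with all arrays and 0.94 without replicate 2 of WT day 8. The cause was not tested. Replicate numbers did not pair the arrays (same-numbered deviations correlated at -0.07 to 0.13), and with the replicate block the counts were 9 at day 15, 5 in WT cells from day 8 to day 15 and 0 in the other 4 comparisons. Quantile normalization took 1 of the 4 Tgfbi probe sets, 1456250_x_at, over the threshold at day 15 (-1.91, adjusted p = 0.0517). Counts over genes from the mean of a gene's probe sets stayed within 1.5 times of those from the brightest probe set. A replicate left out leaves 1 array in its group, whose spread is then taken to be that of the other groups. The lists without each array were added after the data were seen. Background correction could not be varied.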

Other observations

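Ranks among all probe sets of the same array group were set side by side across days, as a description with no test. Processing and day cannot be told apart between day 0 and the later arrays, for ranks as for levels. Ranks that span day 0 are therefore not read as rises or falls of a gene. Tgfb2 (1450923_at) stood at percentile 52.8 in Terc-/- and 45.8 in WT cells at day 0, at 74.0 in Terc-/- and 80.7 in WT cells at day 8, and at 78.0 in Terc-/- and 85.7 in WT cells at day 15. Tgfb1 (1420653_at) stood at 43.9 in Terc-/- and 36.8 in WT cells at day 0 and at 73.5 in Terc-/- and 75.4 in WT cells at day 15. Ltbp2 stood at 73.0 in Terc-/- and 57.8 in WT cells at day 0 and at 39.0 in Terc-/- and 43.1 in WT cells at day 15. Of the Tgfbr2 probe sets, 1426397_at stood at 70.3 in Terc-/- and 61.0 in WT cells at day 0 and 82.9 in Terc-/- and 92.6 in WT cells at day 15. The probe set 1425444_a_at stood at 60.5 in both genotypes at day 0 and at 31.7 in Terc-/- and 33.2 in WT cells at day 15.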
